A study of Mus musculus with 16 samples.

Results

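The genes described here are 49 interferon-stimulated genes, a set of antiviral and immune genes that cells switch on in answer to type I interferon. Each is in the expression table by name, and 49 of the 20490 genes in the table are members. The expression was measured by RNA sequencing in RAW264.7 cells, a mouse macrophage line that can become osteoclasts, the bone-resorbing cells, when given the cytokine RANKL. After 12 h of attachment the cells received phosphate-buffered saline (PBS) as the control, extracellular vesicles of PC3M cells at 30 µg/mL, RANKL at 10 ng/mL, or vesicles and RANKL together at these doses, called the combination below. PC3M is a metastatic human prostate cancer line. RNA was taken 48 h or 72 h after the additions, so the 16 libraries fall into 8 groups with a pair in each. All groups are the same cell line, and the labels name no genetic change in any of them. Nothing in the labels tells whether the pair of libraries in a group was grown as separate cultures. A p-value here therefore reflects the spread between such pairs, which may be technical.

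Type I interferons are secreted proteins that bind the receptor made of IFNAR1 and IFNAR2. The receptor's kinases JAK1 and TYK2 phosphorylate STAT2, which acts with IRF9 at a DNA element called ISRE in the promoters of interferon-stimulated genes. Macrophages keep many of these genes at a low level without infection, through small amounts of interferon that they make themselves. The products sense foreign nucleic acid, degrade or bind viral RNA, stop translation, tag proteins with ISG15 and change membranes that viruses cross. Interferon is also known as a brake on RANKL-driven osteoclast formation.

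Promoter sequences are shown first for 5 members that stand for different behaviour in the values below. Isg15 and Oas3 are typical members, Ifitm3 is the most abundant, and Lgals9 is the member that fell most with RANKL. Gbp7 is the only tested member called higher with RANKL. Each window runs from 250 bases before to 50 after the annotated start, is written 5′ to 3′ on the gene's strand, and comes from RefSeq on GRCm38.p6. The build behind the expression table was not given in the sources used here, and the windows are matched to it by gene symbol. Capitals mark the ISRE-type motif GAAANNGAAA or its reverse complement TTTCNNTTTC.
Isg15, chr4:156200769-156201068, minus strand: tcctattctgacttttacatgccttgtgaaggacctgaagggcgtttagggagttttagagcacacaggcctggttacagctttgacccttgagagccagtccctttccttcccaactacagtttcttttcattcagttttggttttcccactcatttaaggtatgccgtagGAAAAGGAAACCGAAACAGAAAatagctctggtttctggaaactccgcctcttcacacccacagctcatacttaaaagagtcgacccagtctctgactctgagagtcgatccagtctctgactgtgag
Oas3, chr5:120777610-120777909, minus strand: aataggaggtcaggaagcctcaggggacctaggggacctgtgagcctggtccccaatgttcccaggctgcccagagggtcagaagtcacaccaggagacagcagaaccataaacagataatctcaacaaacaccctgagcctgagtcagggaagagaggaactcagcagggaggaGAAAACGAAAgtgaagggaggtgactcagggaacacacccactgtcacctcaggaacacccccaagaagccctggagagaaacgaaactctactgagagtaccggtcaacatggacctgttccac
Ifitm3, chr7:141010695-141010994, minus strand: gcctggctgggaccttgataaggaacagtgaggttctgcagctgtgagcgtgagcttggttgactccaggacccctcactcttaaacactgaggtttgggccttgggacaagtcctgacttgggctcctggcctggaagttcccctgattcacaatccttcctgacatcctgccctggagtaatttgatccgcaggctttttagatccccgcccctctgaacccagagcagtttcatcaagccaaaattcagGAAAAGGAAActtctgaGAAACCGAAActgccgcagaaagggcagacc
Lgals9, chr11:78984875-78985174, minus strand: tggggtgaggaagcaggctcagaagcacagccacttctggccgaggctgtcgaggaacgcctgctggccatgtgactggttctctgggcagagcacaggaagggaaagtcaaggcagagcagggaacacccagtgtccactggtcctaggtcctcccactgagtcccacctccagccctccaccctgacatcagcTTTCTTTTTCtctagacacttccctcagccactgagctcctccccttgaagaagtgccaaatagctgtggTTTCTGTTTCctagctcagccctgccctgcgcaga
Gbp7, chr3:142530086-142530385, plus strand: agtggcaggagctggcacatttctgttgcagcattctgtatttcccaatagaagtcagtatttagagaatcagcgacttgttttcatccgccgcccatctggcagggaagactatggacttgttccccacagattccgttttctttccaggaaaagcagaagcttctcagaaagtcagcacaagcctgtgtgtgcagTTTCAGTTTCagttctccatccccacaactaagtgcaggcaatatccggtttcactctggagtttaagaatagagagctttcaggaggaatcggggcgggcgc

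The Isg15 window held 3 overlapping matches to the ISRE-type motif, in 1 stretch from position -78 to -57, where the start base is position 0. Oas3 held 1 match, from -75 to -66. Lgals9 held 2 matches, from -55 to -46 and after the start from 15 to 24. Ifitm3 held 2 matches, both of which lay after the start. Gbp7, the only tested member called higher with RANKL, also held 1 match, from -53 to -44. A window was found for 38 of the 49 members, and 23 of those 38 held the motif on either strand (60.5%). The same motif was in 1079 of 27025 genes with a window (3.99%), or in 1131 of 32851 windows (3.44%). A second motif, TTCNNNGAA, is the GAS type, an element of the response to interferon gamma, reads the same on both strands and may overlap the first. It was in 10 of the 38 members (26.3%) and in 2582 of the 27025 genes (9.55%). These matches describe letters in a window and show no binding. The map of motif positions gives the 23 members with an ISRE-type match.

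**Figure D1:**
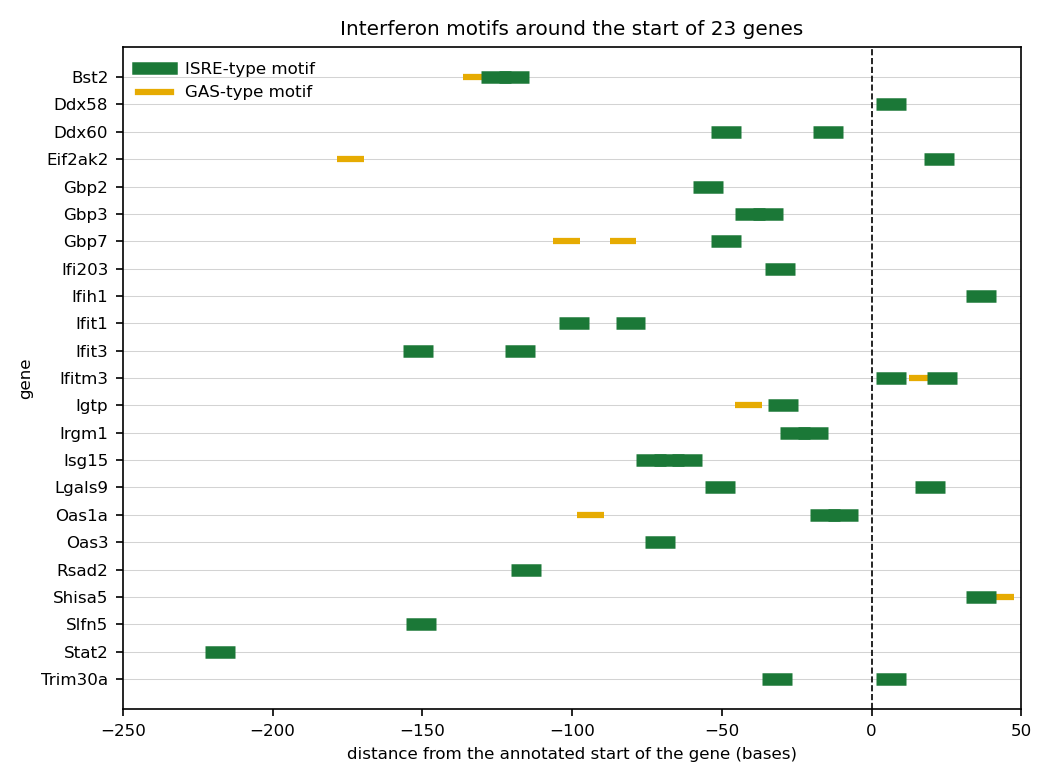
Positions of motif matches in the promoter windows of the 23 members that hold an ISRE-type match, as distance in bases from the annotated start (0). GAS-type matches are drawn for these members only. Ifi35, Ifit2 and Isg20, which held a GAS-type match alone, are not shown. Stat2 holds the ISRE-type match farthest upstream, from -222 to -213.

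Levels below are in RPKM, reads scaled by gene length and library size, computed back from the table's log2(RPKM + 1) values. Changes are differences of group means on that log2(RPKM + 1) scale with their standard errors, and they understate the change of genes near or below 1 RPKM. The limma test was run on all 10365 genes that reached 1 RPKM in 2 or more libraries, with Benjamini-Hochberg adjustment over those genes, and a change is called at an adjusted p under 0.05. Of the 49 members, 43 were tested. Ddx60, Mx1, Mx2, Zbp1, Gbp2 and Gbp3 were too low. The closest outside the filter were Mx2, Gbp3 and Zbp1, whose second-highest libraries were at 0.6004, 0.582 and 0.5604 RPKM. The closest inside were Gbp7, Rsad2 and Ifit1, at 1.08, 1.35 and 1.36 RPKM. Ifit1, Ifit3, Oasl2 and Rsad2 reached 1 RPKM in PBS libraries only, and Gbp7 in libraries with RANKL only. These 5 entered the test through the groups where they were high, so a difference between groups was built into their entry. For comparisons with PBS, counts are therefore also given for the 37 members with a mean of 1 RPKM or more over all libraries. These 37 leave out the 5 and Isg20. Members of families with near-identical copies (the Oas1, Ifit, Ifi200, Gbp, Slfn, Trim30 and Phf11 families) are uncertain, because the way reads were assigned among copies was not given in the sources used here.

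Depth, estimated from the size of the smallest steps in the values, was even, with libraries of 18.4 M at the least, 19.2 M at the median and 20.0 M at the most (M for mega), and 1 read in a gene of 1 kb is worth 0.05 to 0.0544 RPKM. The libraries of a group did not agree equally well for these genes. In PBS the second library was higher for 45 of 49 members at 48 h and 46 of 49 at 72 h, with median differences of 0.31 and 0.29 (log2) against 0.02 and 0.00 for all tested genes. At 48 h the second library was also higher for 44 members with vesicles (median 0.21), 37 with RANKL (0.07) and 29 in the combination (0.02). The medians of all tested genes were 0.02, 0.025 and 0.02 there. At 72 h it was higher for 29 members with vesicles and 21 in the combination. With RANKL at 72 h the second library was lower for 40 of 49 members, by a median of 0.16. The main fit held no term for replicate number. The table's name for 1 combination library at 48 h lacked the letter for RANKL, and it was placed in that group because no other group's names hold its plus sign. Macrophage markers were present in every library. Fewer cells of a type and less RNA per cell cannot be told apart in these bulk samples.

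The members' levels followed the same order at both times: highest in PBS, lower with vesicles or RANKL, and lowest in the combination. Their summed level was 731 and 831 RPKM in the PBS libraries at 48 h, 481 and 511 with vesicles, 414 and 426 with RANKL, and 354 and 339 in the combination. At 72 h the sums were 809.8 and 929 RPKM in PBS, 691 and 652 with vesicles, 582 and 444 with RANKL, and 387 and 348 in the combination. The sums of the 4 groups did not overlap at either time. Ifitm3 alone gave a large share of each sum, and without it the sums at 48 h were 420.4 and 519 RPKM in PBS and 206 and 208 in the combination. They were 279 and 332 RPKM with vesicles and 272 and 297 with RANKL, so these 2 groups overlapped at 48 h without Ifitm3. At 72 h the sums without it were 364 and 366 RPKM with vesicles and 351 and 293 with RANKL.

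Gene by gene, the order held for most members. PBS had the highest group mean in 46 of 49 members at 48 h and in 45 at 72 h. The combination had the lowest group mean in 44 and 43 members. In 45 members at 48 h both PBS libraries were above the 6 others of that time. Of these, 40 were among the 43 tested members, against 12% of all tested genes. The count at 72 h was 27 members, 26 of them tested, against 12%. Both combination libraries were below the 6 others in 36 members at 48 h and 39 at 72 h. Tested members were 35 and 36 of these, against 8.88% and 11.2% of all tested genes. The 43 include Ifit1, Ifit3, Oasl2 and Rsad2, which entered the test through PBS libraries only. RANKL and vesicles alone kept no single order across members: the RANKL mean was the lower in 31 members at 48 h and in 37 at 72 h. Herc6, Gbp3 and Gbp7 did not have their highest mean in PBS at either time, and Bst2 did not at 72 h.

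**Figure D2:**
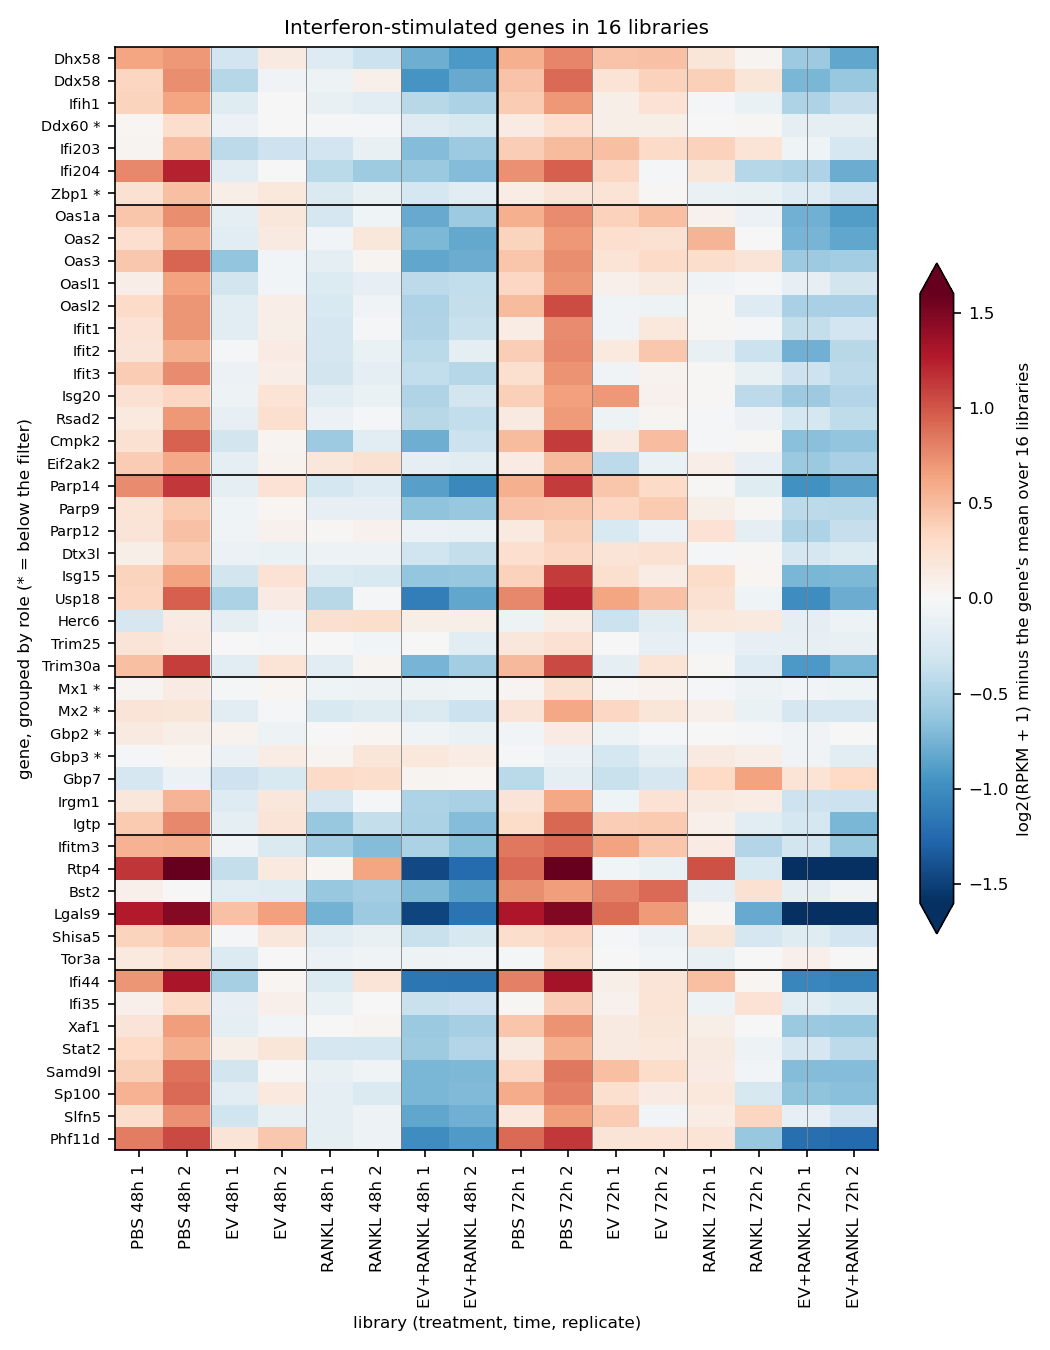
Each member's level in each of the 16 libraries, as the difference in log2(RPKM + 1) from the member's mean over all libraries; members are ordered by role, and the colour scale ends at the values marked on the bar. PBS columns are high and combination columns low for most rows, and the rows of Gbp7, Gbp3 and Herc6 differ.

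Vesicles alone lowered 9 of the 43 tested members at 48 h and 11 at 72 h, and raised none at either time. Of all tested genes 0.685% fell at 48 h and 7.83% at 72 h, and 0.608% and 10.4% rose. Among the 37 members with a mean of 1 RPKM or more, 9 and 10 fell, against 0.642% and 8.19% of such genes. Sensors of nucleic acid made up 5 of the 9 at 48 h: Ddx58, Ifih1, Dhx58, Ifi203 and Ifi204. The others were Oas3, Parp14, Sp100 and Ifi44. At 72 h the 11 were Ifih1, Ifi204, Oasl2, Eif2ak2, Trim25, Trim30a, Parp12, Rtp4, Sp100, Ifi44 and Phf11d. Ifi204, Ifi44, Ifih1 and Sp100 fell at both times. The median change of all 49 members was -0.53 at 48 h and -0.32 at 72 h on the log2 scale, and the medians of all tested genes were 0.03 and 0.03. The libraries of the vesicle and PBS groups did not overlap, with vesicles lower, in 45 of 49 members at 48 h and in 32 at 72 h. Tested members were 40 and 30 of these, against 20.6% and 23.6% of all tested genes. No call of either time held without each library in turn. Without PBS replicate 2, or without vesicle replicate 1, 0 members were called at both 48 h and 72 h. Without vesicle replicate 2 the counts were 4 and 7, and without PBS replicate 1 they were 10 and 18. At 48 h 36 members, and at 72 h 20 members, had an unadjusted limma p under 0.05, all of them lower, and of all tested genes 11.2% and 36.4% did in either direction. With no filter on low values the limma counts were 0 and 3, and in a fit of the compared groups alone they were 5 and 0.

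RANKL alone lowered 28 of the 43 tested members at 48 h and 25 at 72 h, and raised Gbp7 at both times. The shares of all tested genes that fell were 8.29% and 9.13%, and the shares that rose were 6.47% and 9.73%. Among the 37 members with a mean of 1 RPKM or more, which leave out Gbp7, 26 and 22 fell. Of all genes at that mean, 8.28% and 9.13% fell. Lgals9, Ifitm3, Parp14, Phf11d and Ifi204 were among the 22 members lowered at both times. The median change of the 49 members was -0.57 at 48 h and -0.47 at 72 h, beside 0.06 and 0.00 for all tested genes. RANKL and PBS libraries did not overlap, with RANKL lower, in 46 members at 48 h and 38 at 72 h. Tested members were 41 and 34 of these, against 25.4% and 27.8% of all tested genes. Of the 29 calls at 48 h, 10 held without each library in turn: Bst2, Dhx58, Ifi204, Ifitm3, Lgals9, Oas1a, Parp14, Phf11d, Sp100 and Stat2. Of the 26 calls at 72 h, 6 held: Bst2, Gbp7, Ifitm3, Lgals9, Parp9 and Phf11d. The count at 48 h was 11 without PBS replicate 2, 14 without RANKL replicate 1 and 17 without RANKL replicate 2. At 72 h it was 7 without PBS replicate 2 and 6 without RANKL replicate 2. With no filter on low values the counts were 18 and 16, and at 72 h the count was 15 with a filter of 5 RPKM and 2 in a fit of the compared groups alone.

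Adding vesicles to cells with RANKL gave a further fall, called for 1 member at 48 h and 12 at 72 h. Parp9 was the member at 48 h. At 72 h Ddx58, Dhx58, Oas1a, Oas2, Oas3, Parp9, Parp14, Rtp4, Lgals9, Ifi44, Xaf1 and Phf11d fell. The shares of all tested genes that fell were 0.164% and 0.531%, and 0.27% and 1.3% rose. The median change of the 49 members was -0.29 at 48 h and -0.45 at 72 h. Combination libraries were below RANKL libraries without overlap in 39 members at 48 h and 41 at 72 h. Tested members were 37 of these at each time, against 21.8% and 27.6% of all tested genes. No call held without each library in turn. At 48 h every such fit gave 0 calls. At 72 h the count was 22 without RANKL replicate 2, and 0 without RANKL replicate 1 or without either combination library. In a fit of the compared groups alone the counts were 10 at 48 h and 1 at 72 h, and with no filter on low values the count at 72 h was 6. At 48 h 21 members, and at 72 h 30 members, had an unadjusted limma p under 0.05, all lower, against 8.05% and 21.1% of all tested genes in either direction.

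The combination against PBS, a comparison added after the data were seen, gave the widest change: 40 of 43 tested members fell at 48 h and 40 at 72 h. They were the same 40 genes, all tested members except Gbp7, Herc6 and Tor3a. Gbp7 rose at 72 h (0.56 ± 0.13, adjusted p = 0.00488, limma), where 19.9% of all tested genes rose, against 11.2% at 48 h. Of all tested genes 10.9% fell at 48 h and 22.1% at 72 h. Among the 37 members with a mean of 1 RPKM or more, 35 fell at each time, against 10.8% and 22.5% of such genes. Gbp7 is not among the 37, and it entered the test only through libraries with RANKL. The median change of the 49 members was -0.95 and -0.88. Of these calls 31 at 48 h and 35 at 72 h, with Gbp7 counted among the latter, held without each library in turn. The lowest count with a library left out was 31 at 48 h and 35 at 72 h, both without PBS replicate 2. Against vesicles alone, also added after the data were seen, the combination was lower for 12 members at 48 h (5.58% of all tested genes) and 28 at 72 h (12.9%), and Gbp7 was higher at 72 h. The shares of all tested genes that were higher were 3.96% and 9.05%. At 48 h this count was 4 without vesicle replicate 2 and 6 without combination replicate 1. The combination of 72 h was called lower than both RANKL and vesicles for 12 members, the 12 named above against RANKL. These comparisons share their PBS, RANKL or vesicle libraries, so their counts are not separate observations.

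No member passed the test of whether vesicles changed it by a different amount with RANKL than without it, on the log2(RPKM + 1) scale. At 48 h 2 members, and at 72 h 6 members, had an unadjusted limma p under 0.05, and of all tested genes 3.07% and 9.25% did. At 48 h the limma adjusted p was level across all tested members to 3 digits, so it gave no ranking. Named here are Ifi204 (interaction 0.94 ± 0.30), Ifitm3 (0.74 ± 0.24), Tor3a (0.32 ± 0.15), Ifit3 (0.37 ± 0.23) and Igtp (0.46 ± 0.30). In these 5 the vesicle difference on this scale was less negative with RANKL than without it. Ifit3 entered the test through PBS libraries only. Its means were 1.27 RPKM in PBS, 0.511 with vesicles, 0.287 with RANKL and 0.115 with both. The scale shrinks changes at such low levels, so the Ifit3 interaction does not show a smaller fold change with RANKL. At 72 h the members with the smallest adjusted p were Parp9 (-0.40 ± 0.12), Oas2 (-0.80 ± 0.25), Dhx58 (-0.61 ± 0.20), Oas1a (-0.58 ± 0.20) and Lgals9 (-0.74 ± 0.30), with limma adjusted p from 0.312 to 0.462. In these 5 the vesicle difference was more negative with RANKL. Of all tested genes 0.00965% passed at each time. A p above the threshold does not show that the effects were equal.

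**Figure D3:**
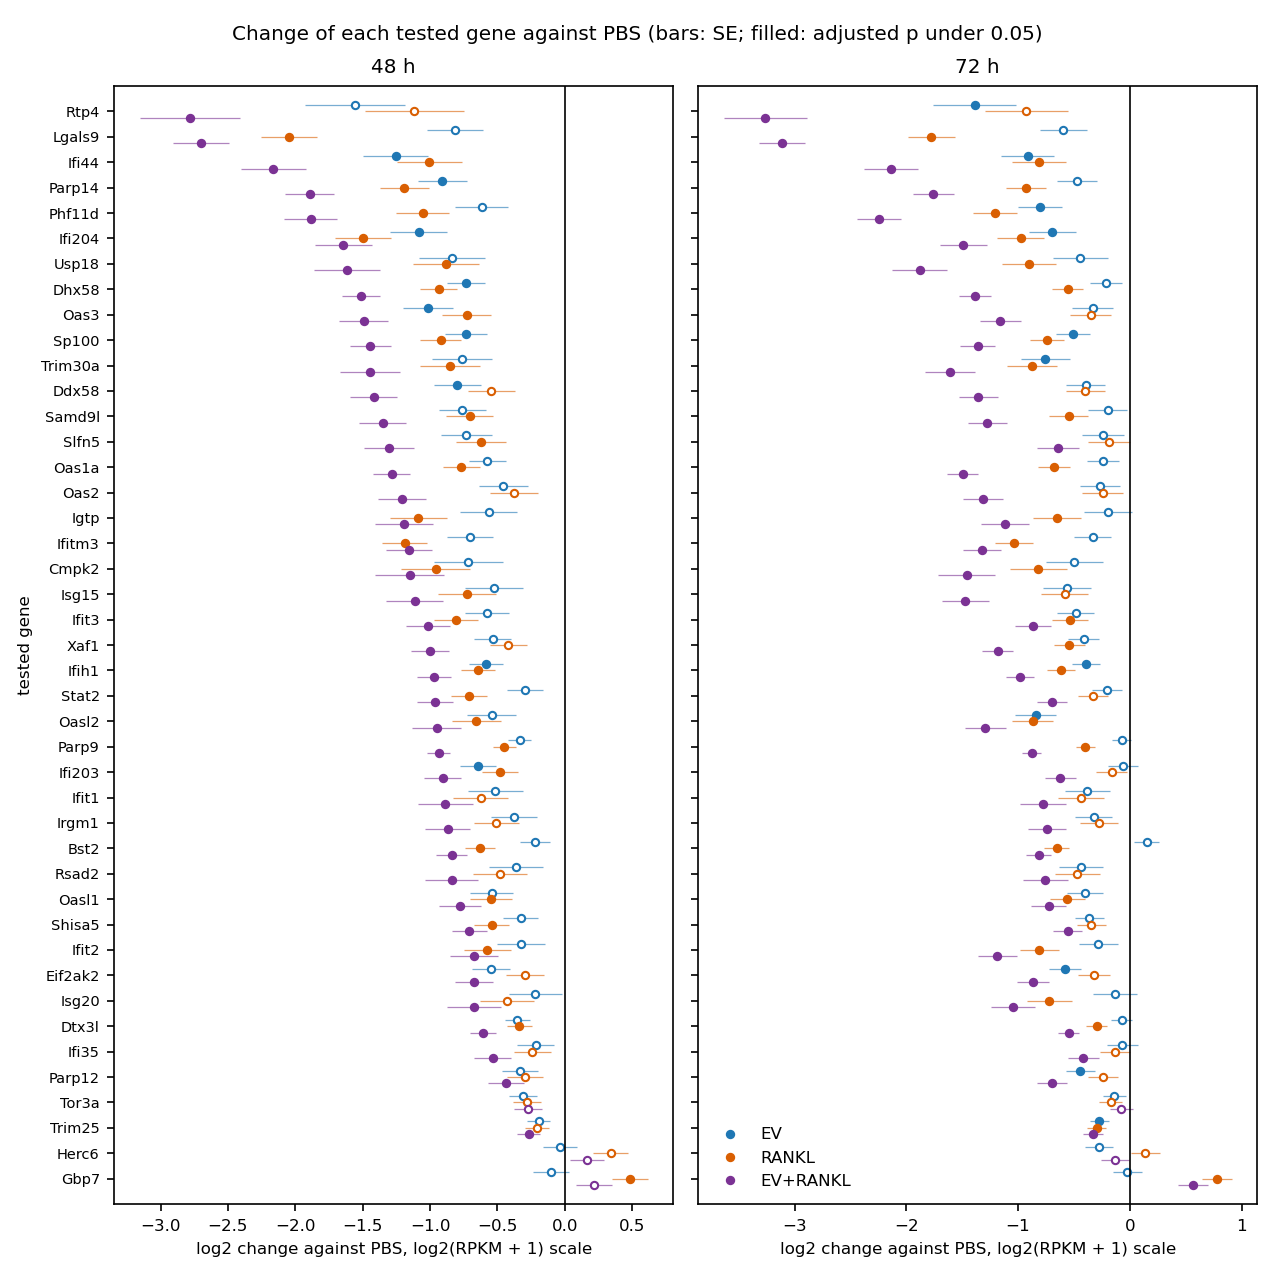
Change of each tested member against PBS on the log2(RPKM + 1) scale, for vesicles, RANKL and the combination, at 48 h and 72 h; filled points passed the limma test. Combination points lie furthest left for most members, down to -2.78 at 48 h and -3.26 at 72 h for Rtp4, and Gbp7 and Herc6 lie at the other end.

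Among the nucleic acid sensors, all 5 tested members fell in the combination at both times. Ddx58 encodes RIG-I, a helicase that senses viral RNA in the cytosol. At 48 h Ddx58 was at 5.97 and 8.26 RPKM in PBS, 3.01 and 4.32 with vesicles, 4.20 and 4.83 with RANKL and 1.87 and 2.16 with both. The 72 h levels were 6.60 and 9.36 RPKM in PBS, 5.41 and 6.13 with vesicles, 6.18 and 5.31 with RANKL and 2.32 and 2.62 with both. The PBS pair was the highest and the combination pair the lowest at both times, and the vesicle and RANKL pairs overlapped. Its change in the combination was -1.42 ± 0.17, adjusted p = 8.7e-05 by limma at 48 h and -1.36 ± 0.17, adjusted p = 9.6e-05 at 72 h. At 72 h the combination was also below RANKL (-0.96 ± 0.17, adjusted p = 0.023, limma).

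Dhx58 encodes LGP2, a relative of RIG-I that tunes the other RNA sensors. At 48 h Dhx58 stood at 5.28 and 5.57 RPKM in PBS, 2.30 and 3.51 with vesicles, 2.51 and 2.20 with RANKL and 1.36 and 1.15 with both. By 72 h the levels were 5.03 and 6.02 RPKM in PBS, 4.59 and 4.62 with vesicles, 3.67 and 3.18 with RANKL and 1.71 and 1.29 with both. All 4 pairs were apart at 72 h, and at 48 h the vesicle and RANKL pairs overlapped. RANKL lowered it at 48 h (-0.94 ± 0.14, adjusted p = 7.2e-04, limma) and the combination was 4.31-fold below PBS. Ifih1 encodes MDA5, which senses long double-stranded RNA. It was at 2.11 and 2.77 RPKM in PBS, 1.13 and 1.44 with vesicles, 1.24 and 1.14 with RANKL and 0.784 and 0.706 with both at 48 h. At 72 h Ifih1 was at 2.23 and 2.94 RPKM in PBS, 1.59 and 1.86 with vesicles, 1.41 and 1.25 with RANKL and 0.730 and 0.888 with both. The PBS pair was the highest and the combination pair the lowest. Ifih1 fell with vesicles at both times (-0.59 ± 0.13, adjusted p = 0.0448 and -0.39 ± 0.13, adjusted p = 0.0495, limma) and with RANKL at both times.

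Ifi204 belongs to the Ifi200 family of DNA sensors. It was at 3.48 and 5.21 RPKM in PBS, 1.35 and 1.63 with vesicles, 0.958 and 0.782 with RANKL and 0.743 and 0.634 with both at 48 h. The levels at 72 h were 3.39 and 4.11 RPKM in PBS, 2.30 and 1.59 with vesicles, 2.01 and 0.926 with RANKL and 0.876 and 0.519 with both. At 48 h the RANKL and combination pairs were close, and the PBS pair stood above all other libraries at both times. Ifi204 had the largest falls of the sensors with vesicles (-1.09 ± 0.21, adjusted p = 0.0264, limma, at 48 h) and with RANKL (-1.498 ± 0.21, adjusted p = 4.4e-04). Zbp1, a sensor of Z-form nucleic acid that can start necroptosis, was below 1 RPKM throughout and was not tested. Its 48 h levels were 0.560 and 0.843 RPKM in PBS, 0.401 and 0.484 with vesicles, 0.122 and 0.212 with RANKL and 0.085 and 0.173 with both. At 72 h Zbp1 was at 0.432 and 0.514 RPKM in PBS, 0.528 and 0.329 with vesicles, 0.220 and 0.213 with RANKL and 0.144 and 0.0443 with both. PBS libraries were the highest at 48 h, and the vesicle pair overlapped PBS at 72 h. Ddx60, the other sensor not tested, ranged from 0.0442 to 0.523 RPKM.

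All 12 effectors that act on RNA or nucleotides fell in the combination at both times, with median changes of -0.92 at 48 h and -1.10 at 72 h. Ifit1, Ifit3, Oasl2 and Rsad2 among them entered the test through PBS libraries only. Oas3 is one of the synthetases that make the oligoadenylate signal for RNase L, an enzyme that cuts RNA. Its 48 h levels were 12.02 and 17.4 RPKM in PBS, 5.22 and 8.41 with vesicles, 7.77 and 8.94 with RANKL and 4.43 and 4.57 with both. At 72 h Oas3 was at 12.2 and 15.1 RPKM in PBS, 10.2 and 10.97 with vesicles, 10.8 and 10.1 with RANKL and 5.47 and 5.58 with both. The PBS pair was highest and the combination pair lowest at both times, while vesicle and RANKL pairs overlapped. Vesicles lowered Oas3 at 48 h (-1.02 ± 0.18, adjusted p = 0.0179, limma), and at 72 h the same change was -0.33 ± 0.18, adjusted p = 0.213. Oas1a and Oas2, of the same family, were called lower in the combination than with RANKL at 72 h, with changes of -0.82 ± 0.14 and -1.07 ± 0.18.

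Oasl2, a relative of these synthetases, was a low member. It stood at 0.830 and 1.41 RPKM in PBS, 0.312 and 0.586 with vesicles, 0.245 and 0.423 with RANKL and 0.0471 and 0.128 with both at 48 h. At 72 h Oasl2 was at 1.10 and 2.05 RPKM in PBS, 0.422 and 0.398 with vesicles, 0.496 and 0.284 with RANKL and 0.032 and 0.0327 with both. Both PBS libraries were above all others, and the combination pair was the lowest at both times. Ifit1 and Ifit3 bind viral RNA and work in a complex. Ifit1 was at 0.704 and 1.36 RPKM in PBS, 0.276 and 0.543 with vesicles, 0.201 and 0.414 with RANKL and 0.0377 and 0.135 with both at 48 h. Its 72 h values were 0.574 and 1.44 RPKM in PBS, 0.390 and 0.635 with vesicles, 0.468 and 0.435 with RANKL and 0.115 and 0.177 with both. The combination pair was the lowest at both times, and at 72 h PBS replicate 1 was below vesicle replicate 2. Ifit3 had 0.990 and 1.54 RPKM in PBS, 0.411 and 0.610 with vesicles, 0.224 and 0.351 with RANKL and 0.138 and 0.0907 with both at 48 h. For 72 h Ifit3 gave 0.786 and 1.48 RPKM in PBS, 0.450 and 0.561 with vesicles, 0.519 and 0.384 with RANKL and 0.194 and 0.119 with both. Both genes had their lowest 2 libraries in the combination at each time, and Ifit1 in PBS replicate 1 was below 1 vesicle library at 72 h. Their combination changes were called, at -0.89 ± 0.20 and -0.78 ± 0.20 for Ifit1 and -1.01 ± 0.16 and -0.86 ± 0.16 for Ifit3. Both reached 1 RPKM in PBS libraries only, so a difference was built into their entry to the test.

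Rsad2 encodes viperin, an enzyme that makes a chain-ending nucleotide, and lies beside Cmpk2, a nucleotide kinase of mitochondria. Rsad2 was at 0.630 and 1.37 RPKM in PBS, 0.339 and 0.753 with vesicles, 0.373 and 0.450 with RANKL and 0.0809 and 0.118 with both at 48 h. At 72 h its values were 0.629 and 1.35 RPKM in PBS, 0.383 and 0.512 with vesicles, 0.455 and 0.371 with RANKL and 0.212 and 0.108 with both. PBS replicate 1 was below vesicle replicate 2 at 48 h, and the combination pair was lowest at both times. Cmpk2 stood at 1.35 and 2.82 RPKM in PBS, 0.622 and 1.05 with vesicles, 0.336 and 0.781 with RANKL and 0.156 and 0.574 with both at 48 h. The 72 h values of Cmpk2 were 1.84 and 3.32 RPKM in PBS, 1.198 and 1.80 with vesicles, 0.956 and 1.02 with RANKL and 0.255 and 0.293 with both. In every group replicate 2 was the higher. Cmpk2 fell with RANKL at both times (-0.96 ± 0.26, adjusted p = 0.0232 and -0.82 ± 0.26, adjusted p = 0.0421, limma) and in the combination (-1.15 ± 0.26 and -1.46 ± 0.26).

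Eif2ak2 encodes PKR, a kinase that halts translation when it meets double-stranded RNA. It was at 20.1 and 23.02 RPKM in PBS, 13.3 and 15.5 with vesicles, 17.0 and 17.7 with RANKL and 13.3 and 12.9 with both at 48 h. At 72 h it was at 16.3 and 21.5 RPKM in PBS, 10.8 and 13.8 with vesicles, 16.1 and 13.5 with RANKL and 9.52 and 10.1 with both. The vesicle and RANKL pairs overlapped at 72 h, and the combination pair was lowest at both times. Vesicles lowered it at 72 h (-0.58 ± 0.14, adjusted p = 0.0192, limma), RANKL changes were -0.29 ± 0.14 and -0.32 ± 0.14 and were not called, and the combination lowered it at both times (-0.67 ± 0.14 and -0.87 ± 0.14). Of the remaining effectors, Oasl1 fell with RANKL at both times, Ifit2 likewise, and Isg20, an exonuclease, at 72 h.

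**Figure D4:**
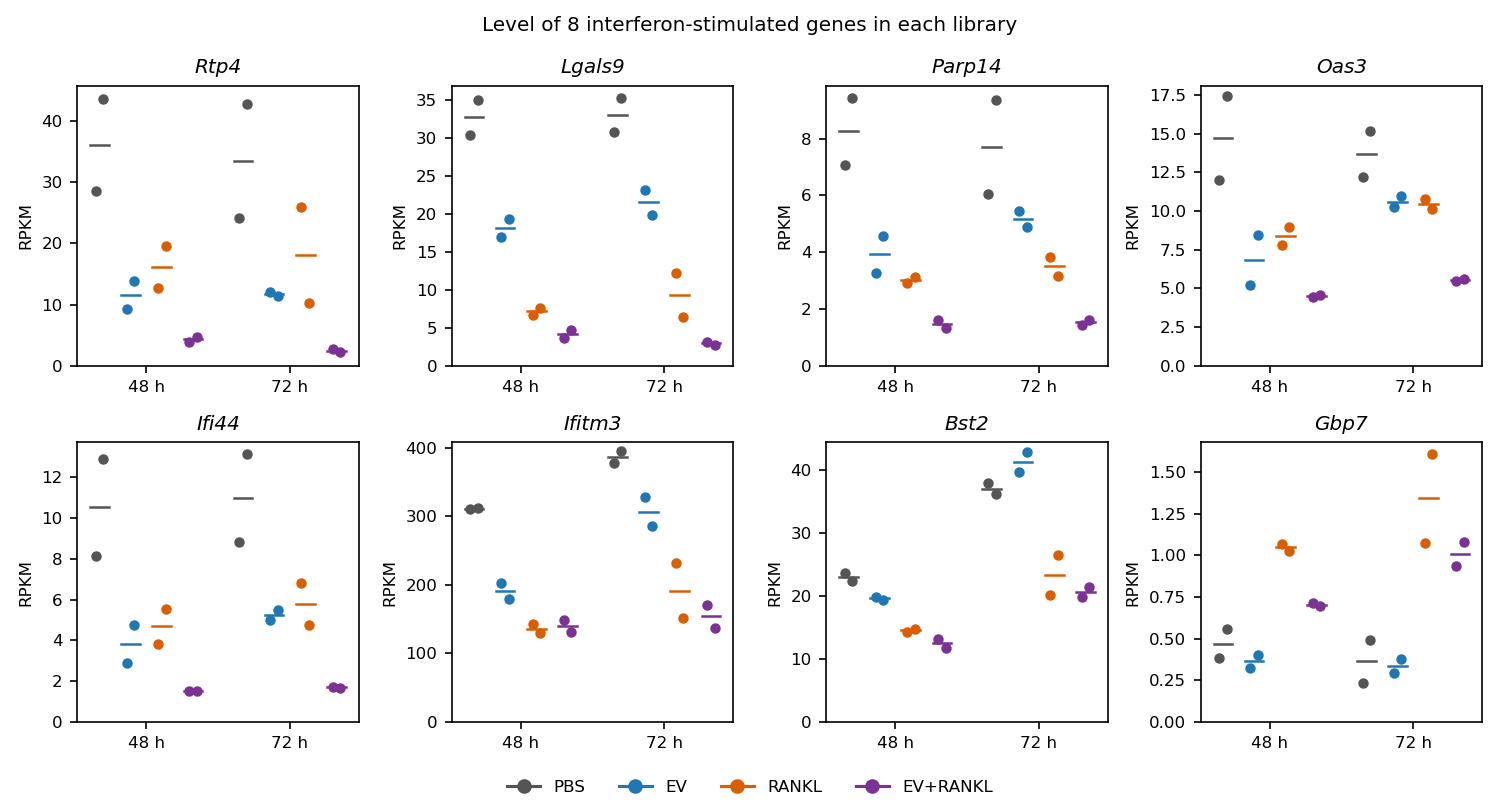
Level in RPKM, on linear axes from 0, in each library of 8 members at 48 h and 72 h, with 1 point a library and a short line at each group mean. The combination pairs are the lowest in the Rtp4, Lgals9, Parp14, Oas3 and Ifi44 panels, Bst2 is higher at 72 h than at 48 h, and in the Gbp7 panel the RANKL means are the highest.

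The enzymes of ISG15, ubiquitin and ADP-ribose held 9 members, all tested, of which 8 fell in the combination at both times. Isg15 encodes a ubiquitin-like protein that is joined to other proteins. Its levels at 48 h were 2.40 and 3.15 RPKM in PBS, 1.18 and 2.12 with vesicles, 1.28 and 1.26 with RANKL and 0.728 and 0.743 with both. At 72 h Isg15 was at 2.45 and 4.80 RPKM in PBS, 2.19 and 1.89 with vesicles, 2.26 and 1.73 with RANKL and 0.606 and 0.621 with both. PBS was highest and the combination lowest without overlap at both times. The combination was 3.78-fold below PBS at 48 h and 5.90-fold at 72 h (-1.47 ± 0.21, adjusted p = 2.2e-04, limma), and the RANKL change was called at 48 h only (-0.73 ± 0.21, adjusted p = 0.037, limma, against -0.58 ± 0.21, adjusted p = 0.0766 at 72 h).

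Usp18 is the protease that removes ISG15 and also dampens the interferon receptor. Usp18 stood at 3.93 and 6.48 RPKM in PBS, 1.72 and 3.23 with vesicles, 1.85 and 2.80 with RANKL and 0.791 and 1.18 with both at 48 h. The 72 h values were 5.57 and 7.99 RPKM in PBS, 4.97 and 4.36 with vesicles, 3.57 and 2.70 with RANKL and 0.949 and 1.24 with both. All combination libraries were below the 6 others of their time. RANKL lowered Usp18 at both times (-0.88 ± 0.24 and -0.90 ± 0.24), and vesicle changes of -0.84 ± 0.24 and -0.44 ± 0.24 were not called. Trim30a, an E3 ligase that restrains inflammatory signalling, was at 6.98 and 11.3 RPKM in PBS, 4.11 and 5.67 with vesicles, 4.08 and 4.92 with RANKL and 2.42 and 2.89 with both at 48 h. At 72 h Trim30a was at 7.21 and 10.9 RPKM in PBS, 4.14 and 5.68 with vesicles, 4.81 and 3.98 with RANKL and 2.04 and 2.44 with both. The PBS pair was highest, the combination pair lowest, and the vesicle and RANKL pairs overlapped at both times. At 72 h the changes with vesicles (-0.75 ± 0.22) and with RANKL (-0.88 ± 0.22) were both called.

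Parp14 and Parp9 add or read ADP-ribose on proteins, and Parp9 works with the ligase Dtx3l. Parp14 was at 7.06 and 9.45 RPKM in PBS, 3.27 and 4.58 with vesicles, 2.91 and 3.14 with RANKL and 1.61 and 1.33 with both at 48 h. Its 72 h values were 6.04 and 9.36 RPKM in PBS, 5.46 and 4.87 with vesicles, 3.84 and 3.15 with RANKL and 1.44 and 1.61 with both. All 4 pairs of Parp14 were apart at both times. Vesicles lowered Parp14 at 48 h (-0.91 ± 0.18, adjusted p = 0.0301, limma) and RANKL at both times, and in the combination it was 5.61-fold and 5.05-fold below PBS. Parp9 was at 9.15 and 10.7 RPKM in PBS, 7.32 and 7.97 with vesicles, 6.99 and 6.98 with RANKL and 4.62 and 4.77 with both at 48 h. The levels of Parp9 at 72 h were 11.03 and 10.9 RPKM in PBS, 10.0 and 10.7 with vesicles, 8.31 and 7.84 with RANKL and 5.54 and 5.49 with both. Its replicates were close, and it was the single member called in the combination against RANKL at 48 h (-0.49 ± 0.08, adjusted p = 0.0291, limma), with a like change at 72 h (-0.48 ± 0.08, adjusted p = 0.0221). Vesicles alone changed Parp9 by -0.07 ± 0.08 at 72 h, not called, with both libraries just below those of PBS. Trim25, a ligase that activates RIG-I, had the smallest combination changes of the 40 called members, at -0.27 ± 0.09 and -0.33 ± 0.09.

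Herc6, the ligase that joins ISG15 to proteins in mouse cells, was not called in any treatment comparison. It was at 1.07 and 1.75 RPKM in PBS, 1.24 and 1.43 with vesicles, 1.996 and 2.04 with RANKL and 1.68 and 1.68 with both at 48 h. At 72 h Herc6 was at 1.37 and 1.71 RPKM in PBS, 0.981 and 1.22 with vesicles, 1.81 and 1.78 with RANKL and 1.25 and 1.36 with both. RANKL libraries were the highest at both times, with RANKL changes of 0.34 ± 0.13 and 0.14 ± 0.13 and combination changes of 0.17 ± 0.13 and -0.13 ± 0.13.

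Of the 7 interferon-inducible GTPases, 3 were tested. Mx1, a dynamin-like GTPase that traps viral particles, was close to 0. It was at 0.0901 and 0.163 RPKM in PBS, 0.0431 and 0.0879 with vesicles, 0.0147 and 0 with RANKL and 0 and 0.014 with both at 48 h. At 72 h Mx1 had 0.0896 and 0.254 RPKM in PBS, 0.0725 and 0.101 with vesicles, 0.0426 and 0 with RANKL and 0.0279 and 0.0143 with both. All 3 libraries in which Mx1 was listed at 0 had RANKL, and the level was too low for a test. Gbp2, a guanylate-binding protein that attacks vacuoles of microbes, stood at 0.191 and 0.150 RPKM in PBS, 0.125 and 0.0212 with vesicles, 0.0855 and 0.0993 with RANKL and 0.0397 and 0 with both at 48 h. Its values at 72 h were 0.0433 and 0.180 RPKM in PBS, 0.0206 and 0.063 with vesicles, 0.0824 and 0.0599 with RANKL and 0.0405 and 0.0829 with both. No group of Gbp2 stood apart at 72 h. Mx2 stayed at or below 0.942 RPKM and Gbp3 at or below 0.612. Gbp3 was at 0.393 and 0.447 RPKM in PBS and 0.461 and 0.612 with RANKL at 48 h. At 72 h Gbp3 was at 0.3835 and 0.324 RPKM in PBS and 0.555 and 0.508 with RANKL. Its RANKL pair was above its PBS pair at both times, and Gbp3 was not tested.

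Irgm1, a GTPase that guards against bacteria in vacuoles, was at 3.93 and 5.31 RPKM in PBS, 2.77 and 3.90 with vesicles, 2.58 and 3.29 with RANKL and 2.07 and 2.03 with both at 48 h. Its levels at 72 h were 3.99 and 5.63 RPKM in PBS, 3.14 and 4.10 with vesicles, 3.80 and 3.70 with RANKL and 2.45 and 2.42 with both. The fall was called in the combination only (-0.87 ± 0.17, adjusted p = 0.00245 and -0.74 ± 0.17, adjusted p = 0.00393, limma), and vesicle and RANKL libraries overlapped. Igtp, of the same family, fell with RANKL at both times (-1.09 ± 0.21 and -0.65 ± 0.21). Gbp7 was the only tested member called higher with RANKL. Gbp7 stood at 0.381 and 0.555 RPKM in PBS, 0.326 and 0.401 with vesicles, 1.07 and 1.03 with RANKL and 0.712 and 0.694 with both at 48 h. For 72 h it was at 0.233 and 0.493 RPKM in PBS, 0.296 and 0.380 with vesicles, 1.08 and 1.61 with RANKL and 0.935 and 1.08 with both. All 8 libraries with RANKL were above all 8 without it. Gbp7 entered the test only through libraries with RANKL, so this separation and the calls below are no independent support for a rise. RANKL raised it by 0.48 ± 0.13, adjusted p = 0.0273 (limma) at 48 h and 0.78 ± 0.13, adjusted p = 0.0019 at 72 h, and the combination by 0.56 ± 0.13, adjusted p = 0.00488 at 72 h. Both calls of 72 h held without each library in turn. The RANKL call at 48 h was lost without any of its libraries, at limma adjusted p from 0.0628 without PBS replicate 2 to 0.194 without PBS replicate 1.

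The membrane and trafficking members included both the most abundant and the most changed. Ifitm3 blocks the fusion of viruses in endosomes. It was at 310.4 and 312 RPKM in PBS, 202 and 179 with vesicles, 142 and 129 with RANKL and 148 and 131 with both at 48 h. The 72 h values were 377 and 395 RPKM in PBS, 328 and 286 with vesicles, 231 and 152 with RANKL and 171 and 138 with both. PBS and vesicle libraries stood above the RANKL and combination libraries, and these last overlapped at both times. RANKL lowered it (-1.19 ± 0.17, adjusted p = 4.9e-04 and -1.04 ± 0.17, adjusted p = 0.00148, limma), and adding vesicles to RANKL changed it by 0.03 ± 0.17 and -0.29 ± 0.17, neither called. Vesicles alone changed it by -0.71 ± 0.17 at 48 h (adjusted p = 0.0658, limma) and -0.33 ± 0.17 at 72 h.

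Bst2 encodes tetherin, which holds budding virus at the cell surface. It was at 23.7 and 22.4 RPKM in PBS, 19.8 and 19.4 with vesicles, 14.3 and 14.8 with RANKL and 13.2 and 11.8 with both at 48 h. At 72 h it stood at 37.9 and 36.2 RPKM in PBS, 39.7 and 42.9 with vesicles, 20.2 and 26.6 with RANKL and 19.9 and 21.4 with both. At 48 h the 4 pairs were apart, in the order PBS, vesicles, RANKL and combination. The vesicle pair of 72 h was above the PBS pair, a difference of 0.15 ± 0.11, adjusted p = 0.344 by limma. RANKL lowered Bst2 at both times (-0.63 ± 0.11, adjusted p = 0.00225 and -0.65 ± 0.11, adjusted p = 0.00197, limma), and the combination changed it little more (-0.21 ± 0.11 and -0.16 ± 0.11 against RANKL, not called).

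Lgals9 encodes galectin-9, a sugar-binding protein that interferon induces. It was at 30.4 and 35.0 RPKM in PBS, 17.0 and 19.4 with vesicles, 6.67 and 7.65 with RANKL and 3.70 and 4.70 with both at 48 h. By 72 h the levels were 30.8 and 35.2 RPKM in PBS, 23.2 and 19.9 with vesicles, 12.3 and 6.39 with RANKL and 3.12 and 2.73 with both. All 4 pairs were apart at both times, and with RANKL at 72 h replicate 1 was far above replicate 2. RANKL alone put it 4.57-fold below PBS at 48 h (-2.05 ± 0.21, adjusted p = 5.8e-05, limma), and the combination 11.3-fold below at 72 h (-3.11 ± 0.21, adjusted p = 9.6e-07, limma). Vesicle changes alone were -0.81 ± 0.21 and -0.59 ± 0.21 and were not called.

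Rtp4, a chaperone of receptors that interferon induces, had the largest combination change. It was at 28.6 and 43.7 RPKM in PBS, 9.25 and 13.9 with vesicles, 12.6 and 19.6 with RANKL and 3.91 and 4.67 with both at 48 h. At 72 h Rtp4 had 24.1 and 42.8 RPKM in PBS, 11.98 and 11.4 with vesicles, 26.0 and 10.3 with RANKL and 2.78 and 2.15 with both. Its replicates were uneven: with RANKL at 72 h, replicate 1 was above PBS replicate 1 and replicate 2 was below both vesicle libraries of that time. The combination was 8.42-fold below PBS at 48 h and 13.5-fold at 72 h (-3.26 ± 0.37, adjusted p = 4.0e-05, limma). Vesicles alone lowered Rtp4 at 72 h (-1.39 ± 0.37, adjusted p = 0.0253, limma), and at 48 h a change of -1.56 ± 0.37, adjusted p = 0.0635 was not called. Shisa5 fell in the combination (-0.71 ± 0.13 and -0.56 ± 0.13), and Tor3a, a torsin of the endoplasmic reticulum, was not called (-0.27 ± 0.10 and -0.08 ± 0.10).

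All 8 transcription, nuclear and other members fell in the combination at both times. Stat2 is a part of the factor that binds ISRE. It was at 8.22 and 9.95 RPKM in PBS, 6.93 and 7.48 with vesicles, 5.17 and 5.10 with RANKL and 3.98 and 4.34 with both at 48 h. The levels at 72 h were 7.19 and 10.0 RPKM in PBS, 7.20 and 7.30 with vesicles, 7.21 and 5.998 with RANKL and 5.18 and 4.55 with both. At 48 h the 4 pairs were apart, and at 72 h PBS replicate 1 was just below both vesicle libraries. RANKL lowered Stat2 at 48 h (-0.71 ± 0.13, adjusted p = 0.00328, limma) but the change at 72 h was -0.33 ± 0.13, adjusted p = 0.111, and vesicle changes were small (-0.29 ± 0.13 and -0.20 ± 0.13, not called).

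Ifi44, a cytosolic protein linked to antiviral defence, had the largest called fall with vesicles at 48 h. It stood at 8.16 and 12.9 RPKM in PBS, 2.89 and 4.75 with vesicles, 3.84 and 5.52 with RANKL and 1.53 and 1.51 with both at 48 h. At 72 h Ifi44 was at 8.85 and 13.1 RPKM in PBS, 5.01 and 5.51 with vesicles, 6.83 and 4.75 with RANKL and 1.72 and 1.66 with both. Every PBS library was above all other libraries of its time, and the combination pair was lowest. Its change with vesicles was -1.26 ± 0.24, adjusted p = 0.0257 (limma) at 48 h and -0.92 ± 0.24, adjusted p = 0.0241 at 72 h, with RANKL -1.01 ± 0.24 and -0.81 ± 0.24, and the combination put it 6.93-fold and 6.51-fold below PBS. Phf11d, a PHD-finger protein, was at 7.88 and 9.52 RPKM in PBS, 4.85 and 5.79 with vesicles, 3.53 and 3.78 with RANKL and 1.54 and 1.70 with both at 48 h. Its 72 h values were 8.47 and 10.0 RPKM in PBS, 4.81 and 4.90 with vesicles, 4.90 and 2.32 with RANKL and 1.18 and 1.14 with both. The PBS pair was highest and the combination pair lowest at both times. Phf11d fell with RANKL at both times (-1.05 ± 0.20, adjusted p = 0.0031 and -1.21 ± 0.20, adjusted p = 0.00148, limma) and with vesicles at 72 h (-0.80 ± 0.20, adjusted p = 0.0192), and the combination lay 7.97-fold below PBS at 72 h. Sp100, a nuclear body protein, fell in every comparison of vesicles or RANKL with PBS (-0.73 ± 0.15 and -0.51 ± 0.15 with vesicles, -0.92 ± 0.15 and -0.74 ± 0.15 with RANKL).

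Between the times, Bst2 was the only member called in PBS. It was higher at 72 h than at 48 h in PBS (0.66 ± 0.11, adjusted p = 0.0227, limma), as it was with vesicles (1.04), RANKL (0.64) and the combination (0.69). The next members by adjusted p in PBS, none called, were Ifitm3 (0.31 ± 0.17), Parp9 (0.13 ± 0.08), Oasl2 (0.27 ± 0.18) and Usp18 (0.34 ± 0.24). With vesicles 11 members were higher at 72 h, against 17.4% of all tested genes, led after Bst2 by Ifi203 (0.77 ± 0.14, adjusted p = 0.00371, limma), Parp9 (0.40 ± 0.08), Ifitm3 (0.68 ± 0.17) and Dhx58 (0.54 ± 0.14). The shares of all tested genes called higher with time were 0.145% in PBS, 3.45% with RANKL and 17.4% in the combination, and 21.5% were lower there. With RANKL Bst2 and Ifi203 (0.50 ± 0.14, adjusted p = 0.0492, limma) were the calls, ahead of Dhx58 (0.40 ± 0.14), Ifitm3 (0.46 ± 0.17) and Stat2 (0.30 ± 0.13). In the combination Bst2, Ifi203 (0.47 ± 0.14) and Slfn5 (0.58 ± 0.19) were higher and Eif2ak2 was lower (-0.39 ± 0.14), followed by Parp12 (-0.33 ± 0.13), not called. Without vesicle replicate 1 of either time the vesicle count was 3. The PBS call was lost without PBS replicate 1 or 2 of 48 h or replicate 1 of 72 h. With RANKL the count was 0 without either 48 h library and 1 without replicate 2 of 72 h. In the combination it was 1 without either 48 h library or replicate 1 of 72 h and 2 without replicate 2 of 72 h.

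Whether the vesicle change differed between the times was tested directly, and no member passed (limma, 6 of 43 with an unadjusted p under 0.05, against 19.4% of all tested genes). The smallest adjusted p was 0.164 for Ifi203, whose vesicle change was 0.59 ± 0.19 higher at 72 h, followed by Oas3 (0.69 ± 0.26), Dhx58 (0.52 ± 0.20), Bst2 (0.38 ± 0.16) and Samd9l (0.56 ± 0.25). For the RANKL change no member passed and 0 had an unadjusted p under 0.05, against 11.6% of all tested genes, with Stat2 (0.38 ± 0.19), Dhx58 (0.38 ± 0.20), Ifi204 (0.52 ± 0.30), Ifi203 (0.32 ± 0.19) and Slfn5 (0.44 ± 0.27) at the smallest adjusted p. Of all tested genes 0.0193% and 0.0289% passed.

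Across the 16 libraries most tested members varied together. The median Pearson r over 903 pairs of members was 0.86, and 580 pairs were above 0.8. These points share libraries and treatment groups, so r describes the pattern and carries no p. No r was computed among other tested genes, so these values have no background to be set against. Ifit1, Ifit3, Oasl2 and Rsad2 entered through PBS libraries only and Gbp7 through libraries with RANKL only, which shaped their r beforehand. Gbp7 had a median r of -0.45 with the other members, Herc6 -0.06, Tor3a 0.57 and Bst2 0.64.

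The interferon genes that had a value were near 0. Of 21 ligand genes listed, 4 were in the table (Ifna13, Ifnb1, Ifnk and Ifnz), none was tested, and their highest value in any library was 0.0689 RPKM. The other listed ligand genes had no value, so their levels are not known. Receptor genes were expressed in every library. Ifnar1 was at 20.4 ± 1.32 RPKM (SD, n = 2) in PBS and 14.6 ± 0.0211 in the combination at 48 h. Ifnar2 was at 39.1 ± 3.09 RPKM in PBS, 25.7 ± 1.93 with vesicles, 23.5 ± 1.89 with RANKL and 16.2 ± 0.990 in the combination at 48 h (SD, n = 2). Ifnar2 fell with RANKL at 48 h (-0.71 ± 0.14, adjusted p = 0.00474, limma) and in the combination at 48 h and 72 h (-1.22 and -0.89), and at 72 h it was lower in the combination than with RANKL (-0.61). Il10rb, a receptor chain shared by type III interferon, fell with RANKL at 48 h (-0.57), and Tyk2 rose with vesicles at 72 h (0.43). Jak1 ranged from 21.5 to 24.6 RPKM, Jak2 from 4.97 to 7.62, Ifngr1 from 8.52 to 13.1 and Ifngr2 from 27.4 to 39.2. Of the 8 tested receptor and kinase genes, 4 fell and 0 rose in the combination against PBS at 48 h, and at 72 h Ifnar2 fell and Tyk2 rose. Of all tested genes 10.9% fell and 11.2% rose at 48 h, and 22.1% and 19.9% at 72 h.

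Most interferon regulatory factors, a family of transcription factors of the pathway, were lower in the combination. Against PBS 6 of 7 fell at 48 h and 4 of 7 at 72 h, and 0 rose at either time. Of all tested genes 10.9% and 22.1% fell in this comparison. Irf7, the factor that amplifies interferon production, was at 13.9 ± 4.73 RPKM in PBS, 4.57 ± 1.21 with vesicles, 6.48 ± 1.04 with RANKL and 1.90 ± 0.205 in the combination at 48 h (SD, n = 2). It fell with vesicles (-1.40 ± 0.27, adjusted p = 0.0274, limma), with RANKL (-0.96) and in the combination (-2.32). Irf9, the DNA-binding part of the factor that binds ISRE, fell with RANKL (-0.56) and in the combination (-1.02 ± 0.12, adjusted p = 6.1e-05, limma) at 48 h. Irf5 also fell with RANKL at 48 h (-0.49). Irf8, a macrophage factor that RANKL is known to lower, changed with RANKL by -1.98 ± 0.26, adjusted p = 2.8e-04 (limma) at 48 h and -1.64 at 72 h. In the combination against RANKL, Irf7 (-1.44) and Irf9 (-0.59) fell at 72 h. Irf1 rose at 72 h with vesicles (0.48) and with RANKL (0.38), and Irf2 fell with vesicles at 72 h (-0.57).

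Of 18 sensors and adaptors that lead to interferon, 9 fell with RANKL at 48 h and 7 at 72 h, and 1 rose at each time. Of all tested genes 8.29% and 9.13% fell with RANKL, and 6.47% and 9.73% rose. Tlr13, which senses bacterial RNA, changed by -2.77 ± 0.32, adjusted p = 1.2e-04 (limma) at 48 h, with Tlr8 (-2.08), Tmem173 (-0.80), which encodes STING, and Ikbke (-1.66). At 72 h Ticam1 (-0.53), Ikbke (-1.45) and Tlr13 (-1.53) fell and Irak4 rose (0.40). Vesicles alone lowered Ticam1 at 48 h (-0.42) and Mb21d1, which encodes cGAS, at 72 h (-0.77), and raised Tlr4 at 72 h (0.57). At 72 h 7.83% of all tested genes fell with vesicles and 10.4% rose. Mb21d1 was also lower in the combination than with RANKL at 72 h (-0.85).

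Brakes on the pathway moved in both directions. Of all tested genes 9.13% fell and 9.73% rose with RANKL at 72 h, and 8.29% and 6.47% at 48 h. With vesicles 0.685% fell at 48 h, and at 72 h 7.83% fell and 10.4% rose. A count of 1 of the 10 tested brakes at 72 h is near these shares. With RANKL at 72 h, 3 of 10 tested rose and 1 fell: the phosphatases Ptpn1 (0.89 ± 0.11, adjusted p = 2.1e-04, limma) and Ptpn6 (0.40) and the nucleotide hydrolase Samhd1 (0.55) rose, and the RNA editing enzyme Adar fell (-0.33). At 48 h with RANKL Samhd1 (0.33) and Ptpn6 (0.31) rose and Usp25 (-0.56) and Adar (-0.40) fell. Vesicles lowered Usp25 at 48 h (-0.65), and at 72 h raised Ptpn6 (0.28) and lowered Ptpn2 (-0.45).

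A wider list of 74 other interferon-stimulated genes, 68 of them in the table and 49 tested, moved mostly in the same direction in the combination. In the combination against PBS 31 fell and 1 rose at 48 h, and 26 fell and 4 rose at 72 h. Of all tested genes 10.9% and 22.1% fell there, and 11.2% and 19.9% rose. With RANKL at 48 h 19 fell and 1 rose, led by Psmb8 (-0.79), an immunoproteasome subunit, Slfn8 (-0.88), Lgals3bp (-1.17) and Nlrc5 (-0.63), the activator of MHC class I genes. At 72 h with RANKL 11 fell and 3 rose, with Oas1g (-0.88), Psmb8 (-0.79) and Ifi47 (-0.69) lower and the lysosomal reductase Ifi30 higher (0.56). Beside these counts, 8.29% of all tested genes fell and 6.47% rose with RANKL at 48 h, and 9.13% and 9.73% at 72 h. Vesicles alone lowered Slfn2 at 48 h (-0.80 ± 0.13, adjusted p = 0.0119, limma), the only gene of this list called there. Among all tested genes 0.685% fell with vesicles at 48 h, and at 72 h 7.83% fell and 10.4% rose. At 72 h vesicles lowered 7, among them Mnda (-1.07) and Ube2l6 (-0.81), a conjugating enzyme for ISG15, and raised 5, among them Uba7 (0.47) and Ifi27 (0.93). In the combination against RANKL at 72 h Oas1g (-0.65) and Slfn8 (-0.71) fell, where 0.531% of all tested genes did. No gene of this list was called at 48 h.

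Markers of cell state also differed between groups. The 7 macrophage markers (Adgre1, Cd68, Csf1r, Itgam, Lyz2, Cd14 and Fcgr1) summed to 7634 to 8151 RPKM in PBS at 48 h, 6003 to 7367 with vesicles, 3124 to 3136 with RANKL and 2229.7 to 2674 in the combination. At 72 h the sums were 6036 to 6909 RPKM in PBS, 6062 to 6296 with vesicles, 2456 to 3199 with RANKL and 1985 to 2468 in the combination. Lyz2 and Cd68 made up most of these sums in PBS, at 5764 ± 452 and 1255 ± 88.8 RPKM at 48 h (SD, n = 2). The sums were lower with RANKL and in the combination, but with vesicles at 72 h they lay within the range of PBS. Against PBS, RANKL lowered 6 of the 7 at 48 h and 3 at 72 h, and the combination 6 at 48 h and 3 at 72 h. Of all tested genes RANKL lowered 8.29% and 9.13%, and the combination 10.9% and 22.1%. Single markers went the other way: with vesicles at 72 h, where the members' median was -0.32, Adgre1 (0.68 ± 0.17, adjusted p = 0.0217, limma) and Csf1r (0.49 ± 0.11, adjusted p = 0.0147) rose and 0 of the 7 fell. Csf1r, the receptor of M-CSF, also rose in the combination against PBS at 72 h (0.41 ± 0.11, adjusted p = 0.00934, limma). The combination against RANKL had 0 of the 7 called at either time. The 6 osteoclast markers (Acp5, Ctsk, Nfatc1, Atp6v0d2, Ocstamp and Mmp9) all rose with RANKL and in the combination against PBS at both times, and 3 at 48 h and 4 at 72 h rose with vesicles. Their sum was 15.3 to 17.3 RPKM in PBS, 81.9 to 90.3 with vesicles, 275 to 292 with RANKL and 482 to 623 in the combination at 48 h. At 72 h they were at 15.6 to 17.3 RPKM in PBS, 94.5 to 124 with vesicles, 447 to 810.4 with RANKL and 1065 to 1562 in the combination. Their part in the members' changes was not tested. Markers of T, NK and B cells, epithelium and stroma stayed below 1 RPKM in sum. The plasmacytoid dendritic cell list did not: at 72 h it summed to 0.612 to 3.94 RPKM in PBS and 2.56 to 12.2 with vesicles. Cox6a2 was the only gene of that list to reach 1 RPKM, and Siglech stayed at or below 0.0483 RPKM.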

How the data were processed

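Total RNA of RAW264.7 cell pellets was made into TruSeq mRNA libraries, per the labels' protocols, and 16 libraries in 8 groups of 2 were used. FastQC, HISAT2 and Partek are named in the submitters' processing notes, which give the human builds GRCh38 and hg38 although the gene names are mouse symbols. No mouse build, annotation or counting step is named there. Values in the deposited table are read here as log2(RPKM + 1), a unit that no source states. Low values step in units of 1 read only if the log base is right: base 2 put 94.0% of 15707 low values from 2517 genes within 0.05 of a whole number of steps, base e 86.8% and base 10 67.9%. Depth was estimated from 424 single-exon genes with lengths from GENCODE M21.

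limma 3.58.1 (R 4.3.3) was fitted once to all 16 libraries with 8 group means and a variance trend, on 10365 genes (those with 2 or more libraries at 1 RPKM or above), with Benjamini-Hochberg adjustment per comparison and a threshold of 0.05. The fit was tested on simulated data. Comparisons of the combination with PBS and with vesicles were added after the data were seen. The members, roles, pathway and marker lists and tests were chosen with earlier results of these data known. From the list of transcription factors 1 gene is not reported here.

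Values in every library are given for representatives named by role and for the 3 members with the largest called change at 5 RPKM or more in each comparison of vesicles with PBS, RANKL with PBS, and the combination with RANKL. In interaction and time comparisons the 5 members with the smallest adjusted p are named, except in the 48 h interaction, where it was level. In each pathway list up to 4 called genes with the smallest adjusted p are named. Other members named for their behaviour, such as Gbp7, Herc6 and Tor3a, were chosen after their values were seen. Alternatives were the pseudocount, the filter, the scaling, the variance model, the groups in the fit, a replicate block, each library left out and the motif spacing.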

Additional observations from a re-analysis of the deposited data

How the results depend on the processing

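No called change of a member, between treatments or between times, reversed its direction under any alternative run; changes that were not called were not followed. Counts of called members that moved by more than 1.5 times are given here, and the cause was not tested except where noted. With no filter on low values, where more genes share the adjustment, the counts were 0 and 3 for vesicles against PBS at 48 h and 72 h (9 and 11 as reported), 18 and 16 for RANKL against PBS (29 and 26), 6 for the combination against RANKL at 72 h (12), and for 72 h against 48 h 0 in PBS (1), 6 with vesicles (11) and 1 with RANKL (2). A filter of 5 RPKM, which tests fewer members, gave 15 for RANKL at 72 h. In fits of the compared groups alone, which have fewer libraries to estimate the spread, the counts were 5 and 0 for vesicles, 2 for RANKL at 72 h, 10 and 1 for the combination against RANKL, 22 for the combination against vesicles at 48 h (12), and for time 0 in PBS, 3 with vesicles, 0 with RANKL and 7 in the combination (4). A pseudocount of 0.25 gave 3 for the combination against RANKL at 48 h (1) and 19 against vesicles at 48 h. A pseudocount of 5 gave 0 for the former, 1 for time with RANKL and 2 for time in the combination. Time with RANKL had 1 call with quantile normalization, equal medians or no variance trend, and time in the combination had 2 with quantile normalization. All other counts stayed within 1.5 times of those reported under these settings.

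With each library left out in turn, the counts ranged from 0 to 10 for vesicles at 48 h, 0 to 18 at 72 h, 11 to 29 for RANKL at 48 h and 6 to 28 at 72 h. They were 0 in each case for the combination against RANKL at 48 h and ranged from 0 to 22 at 72 h. Against PBS the combination gave 31 to 38 at 48 h and 35 to 41 at 72 h, and against vesicles 4 to 14 and 23 to 26. Time gave 0 to 1 in PBS, 3 to 8 with vesicles, 0 to 2 with RANKL and 1 to 2 in the combination. A lone library was assumed to vary like the other groups. Interactions and tests of time differences had 0 calls in all these fits.

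Replicate numbers of the labels were not taken to pair the libraries, because the labels do not say that a number marks a shared culture or day and a group has only 2 numbers. Over 28 pairs of groups, the correlation of same-numbered deviations ranged from -0.115 to 0.529 with a median of 0.151, and 17 were above 0.1. Within 48 h all 6 pairs of groups were above 0.1 (0.14 to 0.476), and within 72 h 3 of 6 were (-0.037 to 0.529). With the replicate block the counts were 15 for vesicles at 48 h and 4 for the combination against RANKL at 48 h, and no other count moved by more than 1.5 times.

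Allowing 1 to 3 bases between the GAAA parts raised the share of members with the ISRE-type motif from 60.5% to 76.3%, and that of all genes from 3.99% to 9.91%. Below about 1 RPKM values rest on few reads, and fold changes there are imprecise.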

Other observations

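Cox6a2, one of 4 genes of the plasmacytoid dendritic cell list in the table, was the only gene of that list to reach 1 RPKM. It was at or near 0 at 48 h, with a mean of 0.0411 ± 0.0581 RPKM (SD, n = 2) in PBS, and at 72 h it was at 2.25 ± 2.32 RPKM in PBS and 7.30 ± 6.81 with vesicles. With RANKL at 72 h it was at 0.0775 ± 0.0017 RPKM and in the combination at 0.311 ± 0.216. Siglech, Ccr9 and Ly6d, of the same list, did not exceed 0.0483, 0.0226 and 0.0675 RPKM in any library.

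Of 49 tested interferon-stimulated genes outside the members, 5 rose and 7 fell with vesicles at 72 h, where 10.4% of all tested genes rose and 7.83% fell, so the share that rose was near that of all genes. The 5 were Uba7 (0.47 on the log2 scale), Ifi27 (0.93), Cd274 (0.80), which encodes PD-L1, Ifitm1 (0.66) and Ifi30 (0.33). Ifitm1, a relative of Ifitm3, changed by 0.66 ± 0.21, adjusted p = 0.0445 (limma) there, while Ifitm3 changed by -0.33 ± 0.17 in the same comparison, which was not called.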
